A study of Gallus gallus with 60 samples.

Results

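Cell-surface and secreted guidance genes of 4 signalling systems were followed in chicken utricles: ephrins with their Eph receptors, semaphorins with plexins and neuropilins, Slits with Robo receptors, and netrins with UNC5 receptors. Members were taken by gene name, and a name counted when its RPKM (read number divided by transcript length and by the total alignments of its library) was at least 1 in at least 2 libraries. Of 52 rows whose names fitted the rule, 48 passed, out of 13862 rows of the whole table that passed the same limit. EPHA6, NTN1, ROBO4 and UNC5D were too low. UNC50 was caught by the name rule but is not a netrin receptor (it is a Golgi-linked membrane protein). It stays in every count of the 48 members, as the 1 member of no family.

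The utricle is a vestibular sensory organ, in which streptomycin, an aminoglycoside antibiotic, kills hair cells and supporting cells of birds then give rise to new ones. The labels give treated and control utricles of chicken at 0, 24, 48, 54, 60, 66, 72, 96, 120, 144 and 168 h, without giving the start of that count. Treated utricles were exposed to streptomycin for 24 h after dissection and left to recover, and the controls are named by that word alone. Each arm had 4 biological samples at 24 h, 3 at 72, 96, 120 and 168 h, and 2 at 0, 48, 54, 60, 66 and 144 h, so 28 per arm. No strain, age, sex or number of pooled utricles is given. How much of the spread behind every p-value is technical and how much lies between animals was not measured. Libraries read as repeats of a sample exist only at 0 and 120 h, and they were averaged.

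Guidance molecules tell growing axons and moving cells where to go by attracting or repelling them at contact or over a distance. Ephrins are membrane-bound ligands whose Eph receptors are receptor tyrosine kinases, and both sides can signal when cells touch. Semaphorins act through plexins, and most secreted class 3 semaphorins need a neuropilin as co-receptor; Slits act through Robos, and netrins through DCC and UNC5 receptors. In the developing inner ear, members of these families are known to steer afferent nerve fibres and to take part in tissue shaping, and outside the nervous system they act on epithelial boundaries and blood vessels.

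Depth was 1486991 to 40331879 alignments per library (median 21154441), with 7 of 60 libraries under 5000000. Hair cell markers fitted the label: their summed level ran from 617.8 to 2686 RPKM (median 1825) in controls and from 298.3 to 774.9 RPKM (median 417.0) in treated utricles, and 21 of 22 fell in the mean effect. Stromal markers moved with treatment as well, from 385.3 to 2642 RPKM (median 1104) in controls and from 715.0 to 2950 RPKM (median 1387) in treated utricles, with 16 of 24 higher and 1 lower. No marker of the 11 marker lists that is in the table was at 0 in every sample. In 1 well-sequenced library, treated replicate 2 at 60 h with 24840914 alignments, 21 of the 48 guidance genes had their lowest value of all 28 treated samples. Control replicate 2 at 24 h, with 2046765 alignments, held the lowest control value of 15 members. Without 1 of these libraries 6 calls of members were lost, and each is given below with its value.

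Most of these genes were expressed at levels that could be measured in every sample. Ranked by mean control RPKM, the most abundant were SEMA7A, EFNB1, NRP1, SEMA6D, ROBO1, EPHB3, EFNB2 and EPHA5. SEMA7A, a semaphorin held to the membrane by a lipid anchor, led with a mean of 84.1 RPKM in controls, followed by the ligand ephrin-B1 (EFNB1) at 44.1 RPKM and the co-receptor neuropilin 1 (NRP1) at 41.5 RPKM. The lowest by this measure were ROBO3 and SEMA3E, with control means of 0.472 and 0.483 RPKM. EFNA5 was the one ephrin-A ligand among the members, at a control median of 4.01 RPKM, below both ephrin-B ligands.

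**Figure D1:**
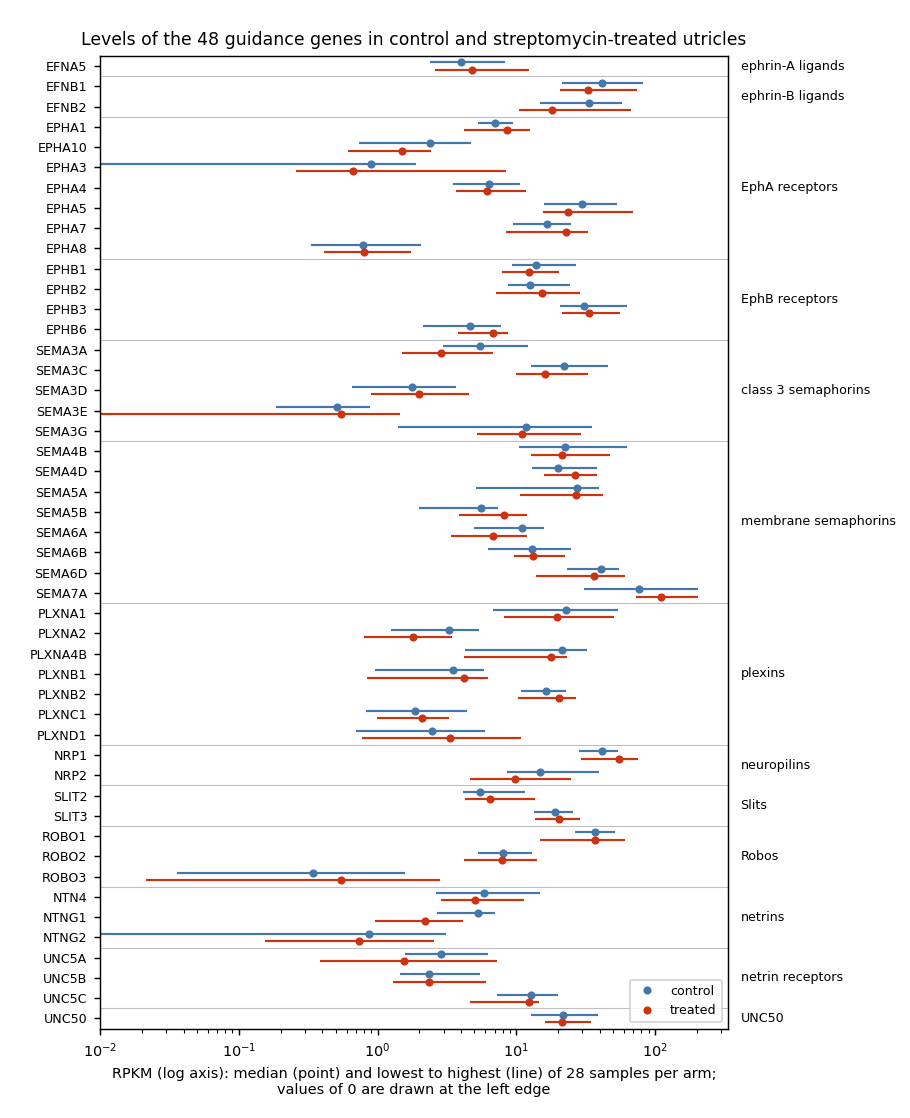
RPKM of the 48 guidance genes on a log axis, grouped by family; points are medians and lines run from the lowest to the highest of 28 samples per arm (blue control, red treated). SEMA7A is the highest in both arms, and for NTNG1 the treated median (2.19 RPKM) lies below the lowest control sample (2.67 RPKM).

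Treated and control utricles were compared first by the mean treatment effect over the 11 times, each with equal weight. A difference was called when its limma p-value, adjusted over all 13862 genes tested, was under 0.05, and effects are log2 differences of RPKM + 0.5, treated minus control, ± SE. In that comparison 21 members were called, 9 higher and 12 lower, or 43.75% of the members, where 31.1% of all genes tested were called (18.5% higher and 12.5% lower). The median effect of the members was -0.01 on the log2 scale, against 0.06 for all genes tested. The largest falls were in netrin G1 (NTNG1), SEMA3A and the netrin receptor UNC5A. The largest rises were in EPHB6, SEMA5B and SEMA7A. Since these are bulk samples, fewer cells of a type and less RNA per cell cannot be told apart.

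**Figure D2:**
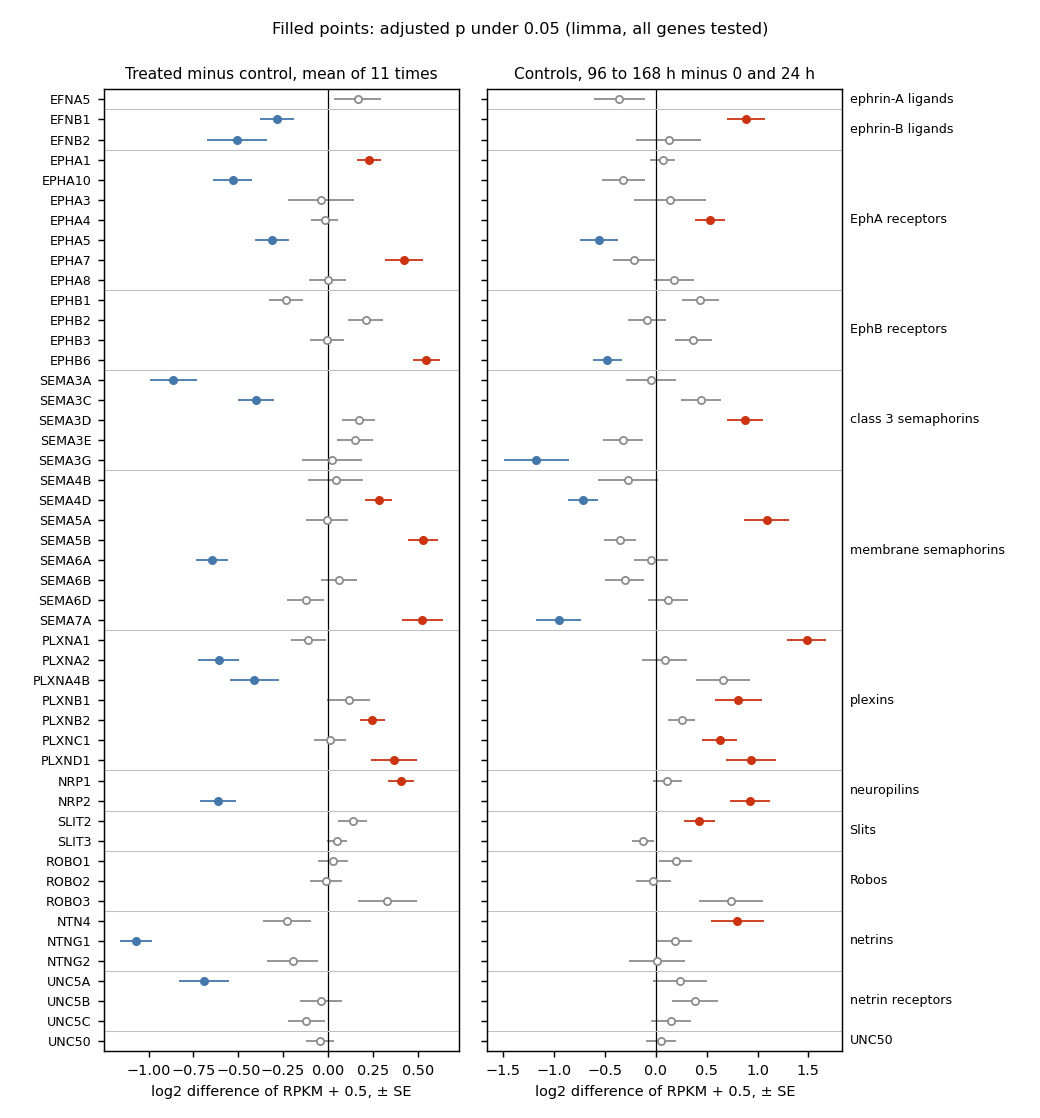
Log2 differences ± SE (limma) of the 48 guidance genes, left for treatment averaged over 11 times and right for the controls at 96 to 168 h against 0 and 24 h; filled points passed the adjusted threshold, red higher and blue lower. NTNG1 (-1.07) is the lowest on the left and PLXNA1 (1.48) the highest on the right.

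Among the ephrin ligands both ephrin-B genes fell and EFNA5 did not pass (0.16 ± 0.13, adjusted p = 0.364). EFNB1 was at 21.4 to 82.6 RPKM in controls (median 41.4) and at 20.9 to 74.0 RPKM in treated samples (median 32.8). The arms overlapped over most of that range, and the treated mean was lower at 10 of the 11 times. Its mean effect was -0.28 ± 0.10 (adjusted p = 0.0221), a call lost without any 1 of 3 control samples: replicate 2 at 54 h (adjusted p = 0.0594), replicate 2 at 66 h (0.0539) or replicate 1 at 144 h (0.0513). EFNB2, an ephrin-B ligand also known for its part in artery and vein boundaries, was at 14.9 to 58.2 RPKM in controls (median 33.5) and at 10.5 to 67.4 RPKM in treated samples (median 18.1). It was lower in 22 of 28 same-numbered pairs and fell by 0.51 ± 0.17 on the log2 scale (adjusted p = 0.017). With the mean of 24 stromal markers as covariate its effect was -0.25 (adjusted p = 0.329).

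The Eph receptors went both ways. Of 7 EphA receptors, 2 rose (EPHA7 and EPHA1), 2 fell (EPHA10 and EPHA5) and 3 did not pass (EPHA3, EPHA4 and EPHA8). Of 4 EphB receptors, EPHB6 rose and EPHB1, EPHB2 and EPHB3 did not pass. EPHB6, an Eph receptor that lacks kinase activity, was at 2.12 to 7.78 RPKM in controls (median 4.67) and at 3.83 to 8.72 RPKM in treated samples (median 6.77). It was higher in the treated sample of all 28 pairs, and at 8 times all treated samples lay above all controls. Its mean effect was 0.55 ± 0.08 (1.46-fold, adjusted p = 2.04e-07). Counts of times without overlap, here and below, are descriptive. With 2 samples per arm at most times the arms can separate by chance, and the share over all genes is not given. EPHB2, which did not pass, also lay above all controls at 4 times.

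EPHA10, the other Eph receptor known to lack kinase activity, went the opposite way, with a mean effect of -0.53 ± 0.11 (adjusted p = 0.000163), and it was lower in 24 of 28 pairs. EPHA7 rose by 0.42 ± 0.11 (adjusted p = 0.00222; 25 of 28 pairs higher), EPHA1 rose by 0.23 ± 0.07 (adjusted p = 0.00636; 24 of 28 pairs higher) and EPHA5 fell by 0.31 ± 0.10 (adjusted p = 0.0103; 25 of 28 pairs lower). In a model with the same-numbered treated and control samples as 28 pairs (called blocked from here), EPHB1 (-0.23, adjusted p = 0.00927) and EPHB2 (0.21, adjusted p = 0.00695) also passed; without the block their adjusted p-values were 0.0578 and 0.0994. Blocked, 24 members were called in the mean effect (50% of members; 41.8% of all genes tested). EPHB3, the most abundant EphB receptor, was at -0.01 ± 0.09 (adjusted p = 0.972).

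Of the 5 secreted class 3 semaphorins, SEMA3A and SEMA3C fell and SEMA3D, SEMA3E and SEMA3G did not pass. SEMA3A, the classical repellent ligand of NRP1 and A-type plexins, was at 2.97 to 12.1 RPKM in controls (median 5.50) and at 1.50 to 6.80 RPKM in treated samples (median 2.88). It was lower in the treated sample of all 28 pairs, and at 7 times no treated sample reached the controls. The fall was 0.86 ± 0.13 on the log2 scale (1.82-fold, adjusted p = 1.15e-06). With the stromal covariate the effect was -0.52 (adjusted p = 0.0021). SEMA3C fell by 0.40 ± 0.10 (adjusted p = 0.00203).

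The membrane semaphorins held 3 rises and 1 fall among 8 members, with SEMA4B, SEMA5A, SEMA6B and SEMA6D not passing. SEMA5B, a transmembrane semaphorin with thrombospondin repeats, was at 1.99 to 7.35 RPKM in controls (median 5.57) and at 3.85 to 12.01 RPKM in treated samples (median 8.17). It was higher in 26 of 28 pairs and at 7 times the arms did not overlap, while its lowest treated value came from treated replicate 2 at 60 h. Its mean effect was 0.53 ± 0.08 (adjusted p = 2.53e-06), and 0.57 (adjusted p = 2.47e-07) without that library. SEMA5A, its closest relative in domain layout, was at -0.01 ± 0.12 (adjusted p = 0.969).

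SEMA7A, known to act through plexin C1 and integrins, was at 30.9 to 204.7 RPKM in controls (median 76.7) and at 73.4 to 203.1 RPKM in treated samples (median 110.0). The ranges overlapped over all times, but 25 of 28 pairs were higher in the treated sample. The mean effect was 0.52 ± 0.11 (1.44-fold, adjusted p = 0.0004). With the stromal covariate it was 0.26 (adjusted p = 0.0932). SEMA4D, a ligand of B-type plexins, rose by 0.28 ± 0.08 (adjusted p = 0.00369; 23 of 28 pairs higher). SEMA6A, a transmembrane ligand of plexins A2 and A4, was at 4.94 to 15.9 RPKM in controls (median 11.0) and at 3.37 to 11.97 RPKM in treated samples (median 6.85), and fell by 0.65 ± 0.09 (adjusted p = 1.42e-07), with no overlap at 8 times.

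The receptors of the semaphorins were split. Of 7 plexins, PLXND1 and PLXNB2 rose, PLXNA2 and PLXNA4B fell, and PLXNA1, PLXNB1 and PLXNC1 did not pass. PLXNA2, a receptor of SEMA6A, fell by 0.61 ± 0.12 (adjusted p = 5.76e-05; 27 of 28 pairs lower). PLXNA4B, whose row carries the description plexin A4, B, fell by 0.41 ± 0.14 (adjusted p = 0.0182). Without treated replicate 2 at 60 h its effect was -0.32 (adjusted p = 0.0491), and with the stromal covariate -0.37 (adjusted p = 0.0846). PLXNC1, the SEMA7A receptor, was at 0.01 ± 0.09 (adjusted p = 0.939).

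PLXND1, the receptor of SEMA3E in vessels, had a mean effect of 0.37 ± 0.13 (adjusted p = 0.025). With the stromal covariate its estimate was -0.04 (adjusted p = 0.843), and without treated replicate 3 at 60 h (0.0633) or control replicate 2 at 144 h (0.052) the adjusted p missed the threshold. PLXNB2, a receptor of SEMA4D, rose by 0.25 ± 0.07 (adjusted p = 0.00557; 22 of 28 pairs higher).

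The 2 neuropilins moved in opposite directions. NRP1, the co-receptor of SEMA3A and of vascular endothelial growth factor, was at 28.6 to 54.0 RPKM in controls (median 41.2) and at 29.4 to 75.4 RPKM in treated samples (median 55.5). At 9 of the 11 times all treated samples lay above all controls, and the 1 pair of 28 that went the other way was that of treated replicate 2 at 60 h. The mean effect was 0.41 ± 0.07 (adjusted p = 2.66e-05), and 0.46 (adjusted p = 5.09e-07) without that library. NRP2, the co-receptor preferred by other class 3 semaphorins, was at 8.59 to 39.6 RPKM in controls (median 14.7) and at 4.64 to 24.9 RPKM in treated samples (median 9.81). Its mean effect was -0.61 ± 0.10 (1.53-fold lower, adjusted p = 6.7e-06), with 26 of 28 pairs lower.

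None of the Slit and Robo genes passed in limma's test of the mean effect. The receptors ROBO1 (0.03 ± 0.08), ROBO2 (-0.01 ± 0.09) and ROBO3 (0.33 ± 0.16) had adjusted p-values of 0.854, 0.931 and 0.128, and the ligands SLIT2 (0.14 ± 0.08) and SLIT3 (0.05 ± 0.06) of 0.2 and 0.538. ROBO3, whose control median was 0.345 RPKM, passed in the blocked model (0.33, adjusted p = 0.0103). No other member of these families passed there, and a p that misses the threshold does not show equal levels.

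Among the netrins, NTNG1 fell and NTN4 and NTNG2 did not pass. NTNG1 is a lipid-anchored netrin known from mammals to bind the synaptic adhesion protein NGL-1 rather than the classical netrin receptors. It was at 2.67 to 7.01 RPKM in controls (median 5.27) and at 0.952 to 4.15 RPKM in treated samples (median 2.19). At 9 times no treated sample reached the controls, and 27 of 28 pairs were lower. The mean effect was -1.07 ± 0.09 (2.10-fold lower, adjusted p = 7.14e-13), the largest change of any member, and its call held in each of the 12 alternatives and without any 1 sample.

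UNC5A was the netrin receptor that fell, and UNC5B and UNC5C did not pass. UNC5A mediates repulsion from netrins and is also known as a receptor that can promote cell death. It was at 1.57 to 6.29 RPKM in controls (median 2.86) and at 0.387 to 7.24 RPKM in treated samples (median 1.56). Over all times the arms overlapped, with 2 treated samples at 168 h the highest of either arm, and at 6 single times they did not. Its mean effect was -0.69 ± 0.14 (1.61-fold lower, adjusted p = 0.000132). Hair cell markers fell in the same samples, by a median of 1.77 on the log2 scale; their part in the falls of NTNG1, UNC5A, EPHA10 and the other members was not tested.

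**Figure D3:**
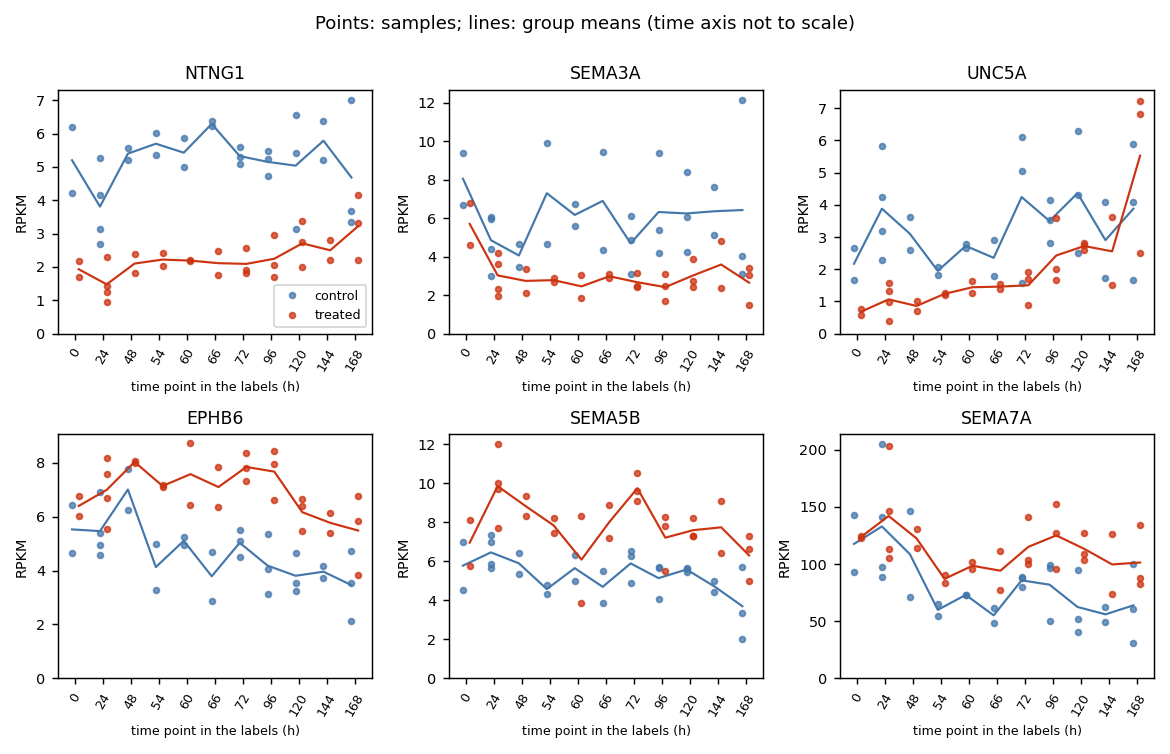
RPKM of the 3 guidance genes with the largest falls and the 3 with the largest rises, by time in hours (categories, not to scale); points are samples, lines group means, blue control and red treated. NTNG1 and SEMA3A are lower in treated samples at all 11 times, EPHB6, SEMA5B and SEMA7A higher at all 11, and UNC5A lower at 10.

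The times were then taken in 3 spans. At 0 and 24 h 5 members were called, 1 higher and 4 lower (10.4% of members; 12.8% of all genes tested, 6.77% higher and 5.98% lower). UNC5A fell by 1.32 ± 0.31 (adjusted p = 0.00264), EPHA10 by 1.22 ± 0.24 (adjusted p = 0.00036), NTNG1 by 1.17 ± 0.20 (adjusted p = 3.21e-05) and SEMA6A by 0.69 ± 0.19 (adjusted p = 0.0138). PLXNB2 rose by 0.61 ± 0.15 (adjusted p = 0.00626), a call lost without libraries under 5000000 alignments (adjusted p = 0.0511). Without treated replicate 1 at 0 h the count was 3, as PLXNB2 (adjusted p = 0.0911) and SEMA6A (0.0609) missed the threshold. SEMA6A was also lost without control replicate 2 at 0 h (adjusted p = 0.117). Blocked, 8 members were called (16.7% of members; 23.1% of all genes tested), with PLXNA1 (0.54, adjusted p = 0.0268), PLXNA2 (-0.67, adjusted p = 0.0184) and SEMA3G (-1.06, adjusted p = 0.00428) in addition.

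At 48 to 72 h, the span with the densest sampling, 12 members were called, 4 higher and 8 lower (25% of members; 19.3% of all genes tested, 9.13% higher and 10.2% lower). The falls were in NTNG1 (-1.22 ± 0.14, adjusted p = 4.77e-09), SEMA3A (-0.91 ± 0.20, adjusted p = 0.000817), SEMA6A (-0.91 ± 0.14, adjusted p = 1.92e-06), UNC5A (-0.85 ± 0.22), SEMA3C (-0.85 ± 0.16), PLXNA2 (-0.73 ± 0.18), NRP2 (-0.70 ± 0.16) and PLXNA4B (-0.69 ± 0.21). Both SEMA3A and SEMA3C, as well as the co-receptor NRP2 and the plexins A2 and A4B, were thus lower, while NRP1 was higher (0.36 ± 0.11, adjusted p = 0.0207). The other rises were in EPHB6 (0.58 ± 0.12, adjusted p = 0.00025), SEMA5B (0.54 ± 0.13, adjusted p = 0.00187) and EPHA7 (0.52 ± 0.17, adjusted p = 0.0261). Without treated replicate 2 at 60 h PLXNA4B was at -0.48 (adjusted p = 0.0985) and no other of these calls was lost. Its call was also lost without control replicate 2 (adjusted p = 0.0612) or treated replicate 1 (0.0607) at 48 h. The calls of EPHA7 and NRP1 were each lost without any 1 of 5 samples, with adjusted p of up to 0.0935 and 0.106 when treated replicate 3 at 60 h was left out. Blocked, 20 members were called (41.7% of members; 28.6% of all genes tested), and EFNB1 (-0.36, adjusted p = 0.0119), EFNB2 (-0.40, adjusted p = 0.0145) and SEMA7A (0.48, adjusted p = 0.00133) were among the added ones.

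At 96 to 168 h 12 members were called, 7 higher and 5 lower (25% of members; 16.8% of all genes tested, 9.65% higher and 7.11% lower). The falls were in EFNB2 (-1.02 ± 0.26, adjusted p = 0.00534), SEMA3A (-0.96 ± 0.20, adjusted p = 0.000737), NTNG1 (-0.83 ± 0.14, adjusted p = 2.78e-05), NRP2 (-0.66 ± 0.16, adjusted p = 0.003) and EPHB1 (-0.44 ± 0.15, adjusted p = 0.039). The rises were in SEMA7A (0.79 ± 0.18, adjusted p = 0.00178), PLXND1 (0.78 ± 0.20, adjusted p = 0.00561), EPHB6 (0.64 ± 0.12, adjusted p = 0.000117), SEMA5B (0.57 ± 0.13), NRP1 (0.49 ± 0.11), EPHA1 (0.39 ± 0.10) and SEMA4D (0.37 ± 0.12). The 5 members called at 0 and 24 h included UNC5A, EPHA10, SEMA6A and PLXNB2, and none of these 4 passed here; the difference between the spans is tested further on, and did not pass for SEMA6A (0.39 ± 0.24, adjusted p = 0.349) or PLXNB2 (-0.40 ± 0.19, adjusted p = 0.201). The call of EPHB1 was lost without any 1 of 13 samples, and that of SEMA4D without any 1 of 8 (adjusted p of up to 0.171 and 0.107). That of EPHA1 was lost without treated replicate 1 at 144 h (adjusted p = 0.0549). Blocked, 19 members were called (39.6% of members; 27.1% of all genes tested).

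Stromal markers were also higher in treated utricles at these times, 18 of 24 passing, with a median of 0.89 on the log2 scale. With their mean as a covariate EFNB2 was at -0.54 (adjusted p = 0.223), SEMA3A at -0.32 (0.286), SEMA7A at 0.30 (0.283), PLXND1 at 0.02 (0.95) and EPHA1 at 0.34 (adjusted p = 0.058), so all 5 missed the threshold. EFNB2 also missed it with array weights (-0.80, adjusted p = 0.0508). The calls of NTNG1, NRP2, EPHB6, SEMA5B, NRP1, EPHB1 and SEMA4D held in that model. In all it called 6 members higher and 10 lower at these times, against 7 and 5 without the covariate. Of all genes tested it called 30.6%, against 16.8%. Other marker lists moved at these times too. Supporting cell markers were higher in 10 of 17 (median 0.58), Schwann cell markers in 3 of 10 (0.63) and cartilage and bone markers in 5 of 10 (0.50). Leukocyte markers were higher in 7 of 17 and lower in 1 (0.49), neuron markers higher in 2 of 9 and lower in 4. Hair cell markers were lower in 17 of 22 (median -1.28). Only the stromal list was used as a covariate, and the part of the others was not tested.

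Time by time, 8 members were called at 1 or more of the 11 times, where 17.7% of all genes tested were. NTNG1 was called at each of the 8 times from 0 to 96 h, with effects from -1.07 at 96 h to -1.39 at 66 h. At 6 of these 8 times, all but 24 and 72 h, leaving out a single sample could end the call; without treated replicate 2 at 60 h the effect at that time was -1.15 (adjusted p = 0.225). It did not pass at 120 h (-0.76, adjusted p = 0.13), at 144 h (-1.07, 0.211) or at 168 h (-0.44, adjusted p = 0.482). At 24 h, the time with 4 samples per arm, 6 members were called (12.9% of all genes tested, 7.5% higher and 5.4% lower): UNC5A (-1.49 ± 0.36), EPHA10 (-1.31 ± 0.28), SEMA3G (-1.28 ± 0.43), NTNG1 (-1.13 ± 0.23) and SEMA6A (-0.88 ± 0.22) fell and PLXNB2 (0.72 ± 0.18) rose. The call of SEMA3G was lost without any 1 of 5 samples at that time (adjusted p of up to 0.125). SEMA6A was also called at 60 h (-1.19 ± 0.32, adjusted p = 0.0196), but without treated replicate 2 it was at -0.79 (adjusted p = 0.697). At 96 h NRP2 (-1.09 ± 0.30) and EPHB6 (0.82 ± 0.22) were called, each lost without any 1 of 4 samples (adjusted p of up to 0.139 and 0.207).

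At 60 h the median effect of the members was -0.34, against 0.03 for all genes tested, and 33 of 48 estimates were below 0. Without treated replicate 2 at 60 h that median was -0.06. The 60 h column of a member therefore rests in part on that library. With 2 pairs at most times the single-time tests are coarse. No member passed in limma's test at 120, 144 or 168 h, which had 3, 2 and 3 samples per arm. There 15, 2 and 10 members had an unadjusted p under 0.05, a looser limit for which the share of all genes is not given here. Of all genes tested, 2.66%, 0.519% and 1.41% passed the adjusted threshold at those 3 times, shares that cannot be set beside the unadjusted counts. Blocked, 20 members were called at 1 or more times (37.6% of all genes tested).

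**Figure D4:**
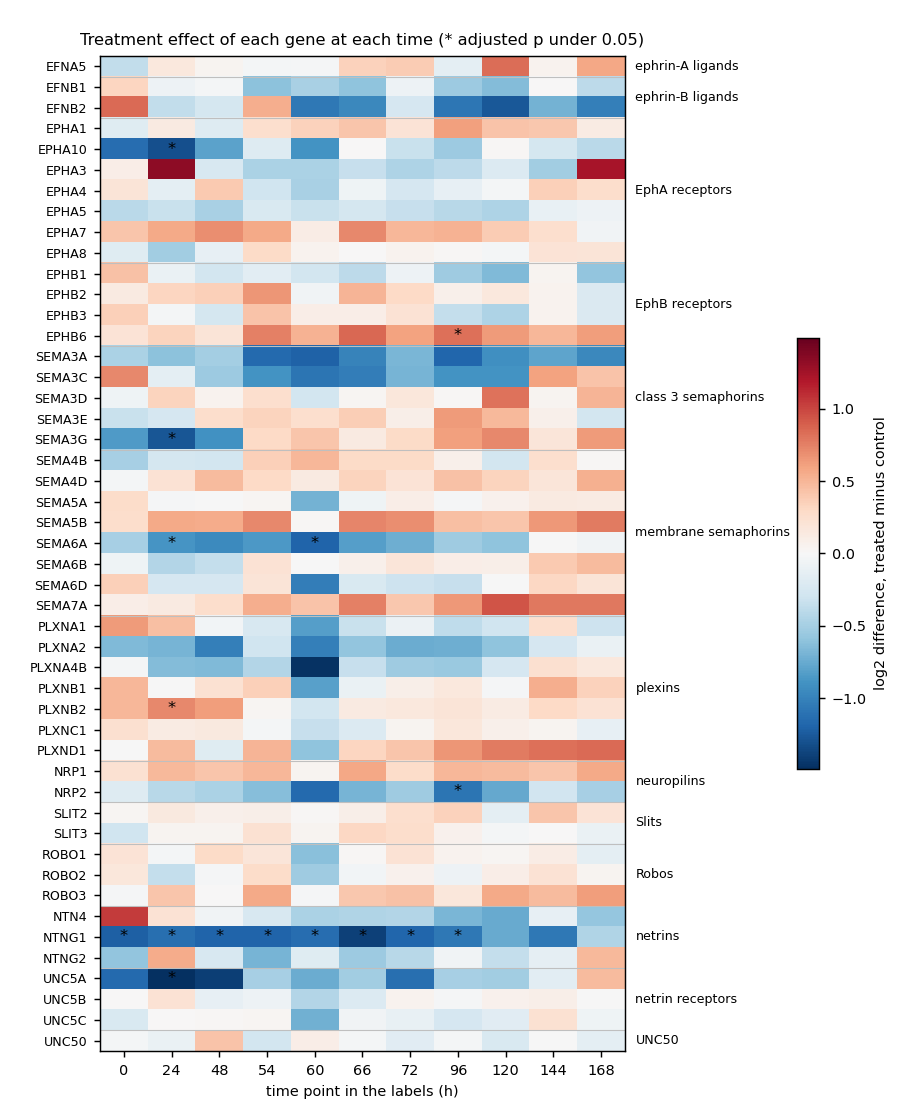
Log2 difference, treated minus control, of the 48 guidance genes (rows, by family) at the 11 times (columns, hours); red is higher and blue lower in treated utricles, and stars mark adjusted p under 0.05 (limma). NTNG1 carries 8 stars from 0 to 96 h, and the 60 h column is bluer than its neighbours, with 33 of 48 estimates below 0.

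Whether the treatment effect itself changed was tested as the effect at 96 to 168 h minus that at 0 and 24 h. In this test 4 members were called, 3 higher and 1 lower (8.33% of members; 8.34% of all genes tested, 3.9% higher and 4.44% lower), a share near that of all genes. SEMA3G, a class 3 semaphorin that binds NRP2, had the largest shift upwards. At 0 and 24 h it was at 13.0 to 35.4 RPKM in 6 controls (median 16.9) and at 5.74 to 12.6 RPKM in 6 treated samples (median 9.70), with no overlap. At 96 to 168 h it was at 1.42 to 14.2 RPKM in 11 controls (median 10.3) and at 5.21 to 29.5 RPKM in 11 treated samples (median 12.2), where the arms overlapped. The early effect was -1.06 ± 0.37 (adjusted p = 0.0526), the late effect 0.54 ± 0.26 (adjusted p = 0.168), and the difference 1.60 ± 0.45 (adjusted p = 0.0228). Between the spans the control median fell from 16.9 to 10.3 RPKM and the treated median rose from 9.70 to 12.2 RPKM. The shift thus includes a change in controls, which is given further on.

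UNC5A was at 1.67 to 5.83 RPKM in controls (median 2.92) and at 0.387 to 1.58 RPKM in treated samples (median 0.868) at 0 and 24 h, with no overlap. At 96 to 168 h it was at 1.67 to 6.29 RPKM (median 4.08) and at 1.50 to 7.24 RPKM (median 2.74), with wide overlap. The difference of the effects was 1.15 ± 0.38 (adjusted p = 0.0499). EPHA10 shifted in the same direction, from an early effect of -1.22 to a late effect of -0.29 ± 0.17 (adjusted p = 0.263), with a difference of 0.93 ± 0.29 (adjusted p = 0.0427). In the same test 12 of 22 hair cell markers were higher and none lower (median 0.98 on the log2 scale), and 7 of 24 stromal markers were higher and none lower (median 0.87). The part of hair cell markers in these shifts was not tested.

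NTN4, a netrin known from basement membranes, shifted the other way. At 0 and 24 h it was at 3.51 to 6.01 RPKM in controls (median 4.13) and at 4.51 to 11.5 RPKM in treated samples (median 5.20). At 96 to 168 h it was at 3.33 to 14.9 RPKM (median 8.34) and at 2.87 to 9.68 RPKM (median 5.32), and the arms overlapped in both spans. Neither effect passed by itself (0.63 ± 0.30, adjusted p = 0.18, and -0.54 ± 0.21, adjusted p = 0.0767), and the difference was -1.16 ± 0.37 (adjusted p = 0.0404). The control median rose from 4.13 to 8.34 RPKM between the spans, while the treated medians were 5.20 and 5.32 RPKM. This shift thus also includes a change in controls.

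EFNB2 had a larger shift, of -1.25 ± 0.45, that did not pass without the block (adjusted p = 0.0775) and passed with it (adjusted p = 0.000459). At 0 and 24 h its control and treated ranges lay on each other, at 14.9 to 56.8 RPKM (median 32.7) and 16.2 to 67.4 RPKM (median 33.3). At 96 to 168 h they were 20.1 to 58.2 RPKM (median 34.8) and 10.5 to 29.2 RPKM (median 12.7), overlapping at their edges. Samples with replicate number 1 or 2 differed in level in both arms, as at 0 h, where EFNB2 was at 14.9 and 45.1 RPKM in controls and at 32.7 and 67.4 RPKM in treated utricles.

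The call of UNC5A was lost without 45 of the 56 samples taken singly, that of EPHA10 without 17, that of NTN4 without 15 and that of SEMA3G without 4. They include control replicate 2 at 24 h for NTN4 (adjusted p = 0.0564) and UNC5A (0.0667), and treated replicate 2 at 60 h for UNC5A. That time is outside this contrast, and the UNC5A estimate stayed at 1.15, its adjusted p with all samples lying just under the threshold. Control replicate 2 at 0 h is among them for all 4 members. Without it the effects were 1.54 for SEMA3G, -1.16 for NTN4, 1.01 for UNC5A and 0.74 for EPHA10. With the stromal covariate SEMA3G was at 0.69 (adjusted p = 0.232), UNC5A at 0.55 (0.323) and EPHA10 at 0.76 (adjusted p = 0.119). The model with that covariate called 0 members higher and 3 lower in this test (10.5% of all genes tested). Without libraries under 5000000 alignments SEMA3G was at 1.52 (adjusted p = 0.0617), NTN4 at -0.97 (0.137) and UNC5A at 0.93 (adjusted p = 0.178). Further alternatives that ended a call were array weights for SEMA3G, no filter for NTN4, no filter and quantile normalization for EPHA10, and these 3 and a pseudocount of 1 for UNC5A. Blocked, 10 members were called in this test (20.8% of members; 18.8% of all genes tested), SEMA7A (0.67, adjusted p = 0.0128) and PLXNA1 (-0.73, adjusted p = 0.0197) among them. Over single samples left out the count ran from 0 to 5, and it was 0 without treated replicate 1 at 0 h and without treated replicate 1 at 144 h. A test of any difference of the effect between the 11 times called no member in limma (1.48% of all genes tested), with SEMA3C the 1 member at an unadjusted p under 0.05 (adjusted p = 0.0571). Blocked, SEMA3C (adjusted p = 0.0090), EFNB2 (0.00947) and UNC5A (0.0366) passed (6.25% of members; 4.17% of all genes tested). The SEMA3C effect was 0.72 at 0 h, -1.09 at 60 h, -0.89 at 120 h and 0.43 at 168 h, each short of the threshold by itself.

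**Figure D5:**
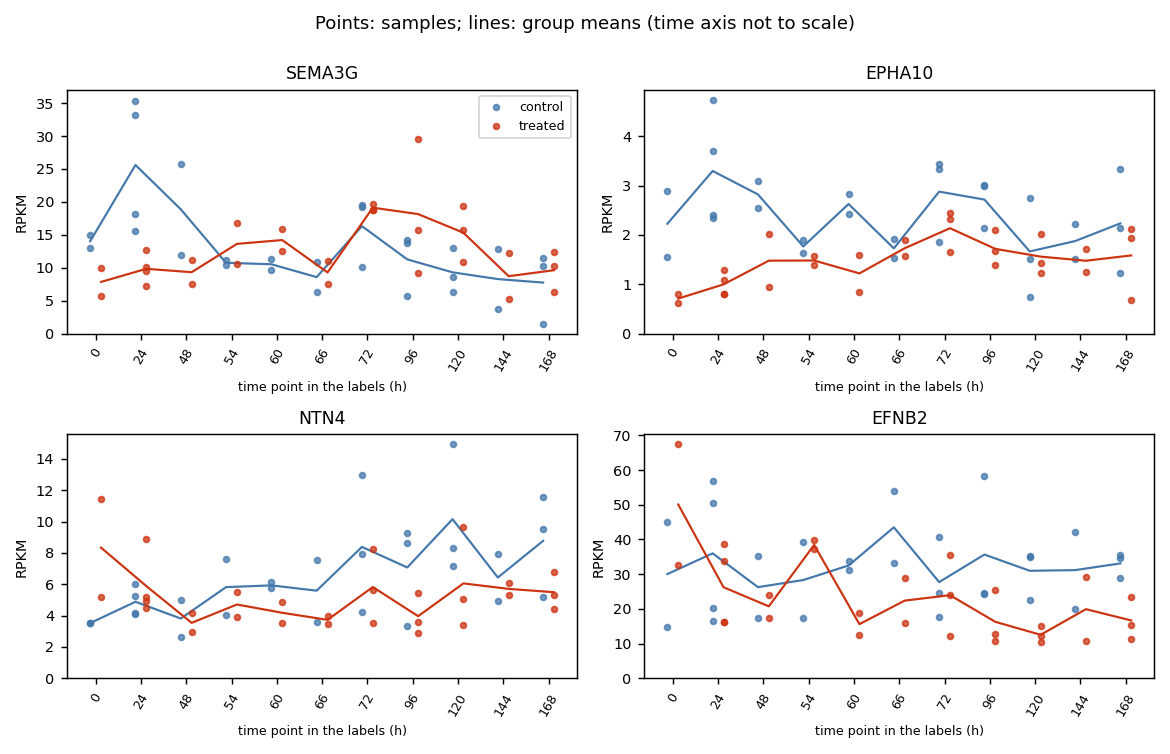
RPKM of SEMA3G, EPHA10, NTN4 and EFNB2 by time in hours (categories, not to scale); points are samples, lines group means, blue control and red treated. For SEMA3G all treated samples lie below all controls at 3 of the 11 times, 0 and 24 h among them, and above all controls at 1 time. For EFNB2 the treated mean lies below the control mean at all times from 60 h on.

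Control utricles changed with time as well. Between 0 and 24 h and 96 to 168 h, 16 members were called in controls, 11 higher and 5 lower (33.3% of members; 19.4% of all genes tested, 7.24% higher and 12.2% lower). Of the receptors and co-receptors, PLXNA1 rose by 1.48 ± 0.19 (adjusted p = 4.38e-07), PLXND1 by 0.94 ± 0.25, NRP2 by 0.92 ± 0.20, PLXNB1 by 0.81 ± 0.23 and PLXNC1 by 0.63 ± 0.17 (adjusted p of at most 0.00996). PLXNA1, a plexin that pairs with neuropilins, went from 6.81 to 19.9 RPKM (median 11.96) at 0 and 24 h to 19.7 to 54.3 RPKM (median 31.0) at 96 to 168 h. Those ranges met only at their edges. Ligands that rose were SEMA5A (1.09 ± 0.22), EFNB1 (0.89 ± 0.19), SEMA3D (0.87 ± 0.18), NTN4 (0.80 ± 0.26, adjusted p = 0.0243) and SLIT2 (0.43, adjusted p = 0.0455), and the receptor EPHA4 completed the 11. In the same comparison 8 of 24 stromal markers were higher and 2 lower (median 0.40), and 9 of 22 hair cell markers were lower and none higher (median -0.43); their part in these changes was not tested beyond the stromal covariate.

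Other ligands fell in controls over the same span: SEMA3G by 1.17 ± 0.32 (adjusted p = 0.00794), SEMA7A by 0.95 ± 0.22 (adjusted p = 0.00187) and SEMA4D by 0.72 ± 0.15 (adjusted p = 0.000518). SEMA7A went from 88.4 to 204.7 RPKM (median 119.2) in the early controls to 30.9 to 99.9 RPKM (median 60.8) in the late ones, while treated samples were at 105.2 to 203.1 RPKM (median 123.4) and then at 73.4 to 152.5 RPKM (median 108.8). Its higher level in treated utricles at 96 to 168 h is thus a comparison with controls that had themselves fallen, and so are those of SEMA4D and EPHB6. The fall of NRP2 at those times is a comparison with controls that had risen. EPHA5 and EPHB6 were the remaining falls (-0.56 ± 0.18 and -0.47 ± 0.14, adjusted p = 0.0288 and 0.0174). The comparison has no pairs across times. Without control replicate 1 at 0 h the count was 10, with PLXNB1 at 0.52 (adjusted p = 0.218) and PLXNC1 at 0.54 (0.0911), and EPHA4 (0.0978) and NTN4 (0.095) also missed the threshold. Without control replicate 2 at 0 h SEMA3G (0.0537), EPHB6 (0.169) and NTN4 (adjusted p = 0.0914) missed it, and NTN4 also did without control replicate 1 at 144 h (0.0666). The call of EPHA5 was lost without any 1 of 5 samples and that of SLIT2 without any 1 of 14, among them control replicate 2 at 24 h (0.38, adjusted p = 0.0924). Without libraries under 5000000 alignments PLXND1 was at 0.65 (adjusted p = 0.0807), PLXNB1 at 0.65 (0.0906), NTN4 at 0.69 (0.0998) and SLIT2 at 0.35 (adjusted p = 0.16). With the stromal covariate PLXND1 was at 0.51 (adjusted p = 0.0598), NTN4 at 0.53 (0.138) and SLIT2 at 0.27 (adjusted p = 0.208).

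Signal partners and effectors of these receptors were read from 4 lists of 94 entries, 76 of them tested. In the mean effect 20 rose, 11 fell and 45 did not pass, with a median of 0.08 on the log2 scale. Of all genes tested, 31.1% were called in that comparison, 18.5% higher and 12.5% lower, with a median of 0.06. The counts of each list below stand against those shares. In the netrin and Slit list 6 of 21 rose and 5 fell. Its largest change was in DSCAML1, a cell adhesion protein related to the netrin co-receptor DSCAM, which fell by 1.83 ± 0.11 (3.56-fold, adjusted p = 2.11e-17), and DSCAM fell by 0.45 ± 0.11 (adjusted p = 0.000927). FLRT3, an adhesion protein that binds UNC5 receptors, rose by 0.55 ± 0.11 (adjusted p = 9.38e-05), as did LRIG3 (0.46 ± 0.08, adjusted p = 6.45e-06), known in the mouse inner ear to restrict netrin 1. The actin regulator EVL fell by 0.45 ± 0.08 (adjusted p = 1.12e-05).

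In the ephrin list 5 of 19 rose and 1 fell. The exchange factor VAV3 fell by 0.60 ± 0.10 (adjusted p = 9.82e-06) while its relative VAV2 rose by 0.32 ± 0.09 (adjusted p = 0.00789). NGEF, the exchange factor ephexin, which acts downstream of EphA receptors, rose by 0.35 ± 0.11 (adjusted p = 0.0123), and the kinase FYN rose by 0.27 ± 0.07 (adjusted p = 0.0026). In the semaphorin list 5 of 19 rose and 2 fell. The plexin-B partners ERBB2 (0.40 ± 0.13) and MET (0.27 ± 0.08) and the collapsin response mediator CRMP1 (0.32 ± 0.06) rose, with adjusted p of 0.0183, 0.00461 and 3.16e-05. The focal adhesion kinase PTK2 fell by 0.27 ± 0.04 (adjusted p = 3.01e-06), and the adhesion protein NRCAM fell by 0.24 ± 0.09 (adjusted p = 0.0355).

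In the list of cytoskeletal effectors 4 of 17 rose and 3 fell. The kinase PAK1 rose by 0.59 ± 0.05 (adjusted p = 8.83e-12) and its relative PAK3 fell by 0.43 ± 0.13 (adjusted p = 0.0109). ABLIM3, an actin-binding protein, rose by 0.80 ± 0.19 (adjusted p = 0.00118), and the GTPase RAC1 rose by 0.20 ± 0.06 (adjusted p = 0.00913).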

How the data were processed

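Total RNA of chicken utricles was extracted with Trizol, and per the labels' protocols the libraries followed those of Illumina. The deposited values were read as RPKM. A row's values multiplied by the alignments the table gives per library fell on whole steps (over 90% of values within 0.05) in 23% of 6387 rows, against 0% as deposited. Steps were taken relative to the row's own lowest value, so the check can show scaling by library but not by transcript length. The scaling by length was assumed, and the order of members by level rests on it. TopHat 1.4.0 and Partek 6.6 are named in the submitters' processing notes. The members' rows carry Ensembl chicken transcript identifiers, but the sources used here give no build, annotation release or treatment of strand. Coordinates are left out, and reads shared between close relatives such as PLXNA4B and other plexin A genes could be split. 2 columns, headed 60c and 60t, matched no sample and were left out, so 60 h holds only replicates 2 and 3 of each arm. Labels with a decimal were read as repeat libraries and their log values averaged, so that 60 libraries gave 56 samples.

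The fit used log2(RPKM + 0.5), a scale that understates folds where levels are low. All 13862 rows at or above 1 RPKM in 2 libraries or more were fitted in 1 model with 22 group means (limma 3.58.1 in R 4.3.3, statmod 1.5.0, prior variance following mean level; 34 residual degrees of freedom), with Benjamini-Hochberg adjustment over all genes.

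Same-numbered samples deviated from their group means together in all 16 pairs at the 5 times with at least 3 pairs (r from 0.117 to 0.71). Over all times r was above 0.1 in 26 of 28 pairs. At a time with 2 pairs both share 1 value of r by construction, so that count holds repeated values. The numbers were taken to pair samples, which the labels do not state. The blocked model had 17 residual degrees of freedom. Members, families, partner and marker lists were chosen with earlier results of these data known. Named are the called members with the largest change, up to 25 in the mean effect and 12 in each other contrast, the most abundant member of each family with its partners, and up to 3 partner genes per list and direction, of which 1 is not reported here. The alternatives were other pseudocounts, filters and scalings, the block, separate repeat libraries, array weights, no trend, a stromal covariate, libraries under 5000000 alignments left out, and samples left out singly or by replicate number. Of the 11 marker lists not described above, supporting cell markers had 8 of 17 higher and 1 lower in the mean effect, leukocyte markers 10 of 17 and 2, endothelial markers 0 of 9 and 2, neuron markers 2 of 9 and 4, Schwann cell markers 4 of 10 and 0, melanocyte markers 3 of 6 and 0, muscle markers 1 of 4 and 0, and cartilage and bone markers 4 of 10 and 0, while erythroid markers summed to at most 1.01 RPKM.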

Additional observations from a re-analysis of the deposited data

Results flagged for a closer look

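In treated utricles at 24 h, EPHA5 was at 69.4 RPKM in 1 of 4 samples and at 20.3 to 25.1 RPKM in the others, a gap that, as a share of the range, was above Dixon's critical value. NTN4 was at 8.89 RPKM in 1 of the same 4 samples and at 4.51 to 5.19 RPKM in the others. Both high values came from treated replicate 1, a library under 5000000 alignments. In controls at 24 h, PLXNA4B was at 4.27 RPKM in replicate 2, also under 5000000 alignments, and at 19.5 to 21.4 RPKM in the others. These 3 values, from 2 samples, stood apart among 70 groups checked, and chance alone flags about 1 in 20 groups. Without the libraries under 5000000 alignments, EPHA5 passed at 0 and 24 h (-0.57, adjusted p = 0.0123), where with them it did not (-0.36, adjusted p = 0.295).

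The treatment effect differed between late and early times, by limma's test of the difference, for SEMA3G (1.60), NTN4 (-1.16), UNC5A (1.15) and EPHA10 (0.93, all log2). Each of these 4 calls was lost when all samples of replicate number 1, 2 or 3 were left out.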

How the results depend on the processing

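Among 66 changes of named members, trimmed-mean scaling, the pseudocount of 0.1, the filter of 30 libraries, no intensity trend and separate repeat libraries lost no call, and the replicate block lost none of the 54 it could test. Calls lost numbered 1 with a pseudocount of 1, 2 with quantile normalization, 3 each with array weights and with no filter, 7 without libraries under 5000000 alignments and 14 with the stromal covariate, among them the mean effect of PLXND1, which reversed to -0.0351 (adjusted p = 0.843); the causes were not tested. Over all pairings of a called change with a single sample left out, 130 of 3696 missed the threshold, and with all samples of a replicate number left out, which removes many at once, 91 of 264 did.

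The number of members called at 0 and 24 h, 5 as reported, was 8 with the replicate block, 11 with repeat libraries as separate samples and 8 with array weights. Of all genes tested, 12.8% were called as reported, and 23.1%, 22.7% and 16.6% in those settings. At 48 to 72 h the member count, 12 as reported, was 20 with the block and 19 with array weights. The share of all genes tested went from 19.3% to 28.6% and 29.7%. At 96 to 168 h the member count, 12 as reported, was 19 with the block, and the share of all genes went from 16.8% to 27.1%. For the late minus early effect the member count, 4 as reported, was 10 with the block, 7 with separate repeats and 2 with array weights. It was 2 with quantile normalization (1 higher and 1 lower), 1 with no filter and 1 without libraries under 5000000 alignments. The shares of all genes tested were 8.34% as reported and 18.8%, 16.0%, 8.45%, 7.52%, 6.07% and 6.69% in these settings, in order. The test of any difference between times called 3 with the block (4.17% of all genes tested). It called 1 with separate repeats, where the share of all genes is not given here. Members called at 1 or more times, 8 as reported, numbered 20 with the block, 13 with separate repeats, 21 with array weights and 18 with the stromal covariate. Of all genes tested, 17.7% were called at 1 or more times as reported and 37.6% with the block. Shares for the other settings are not given here. For the mean effect the stromal covariate gave 7 members higher and 17 lower (38.4% of all genes tested), against 9 and 12 as reported (31.1%).

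With single samples left out, the mean effect called 20 to 22 members, 0 and 24 h 3 to 7, 48 to 72 h 10 to 14, 96 to 168 h 10 to 13, late minus early 0 to 5, any difference between times 0 to 1, 1 or more times 6 to 16, controls 10 to 18 and partner genes 27 to 33. With a replicate number left out, the same counts ran from 10 to 21, 1 to 5, 4 to 12, 4 to 12, 0 to 4, 0 to 0, 4 to 8, 5 to 15 and 11 to 30. The shares of all genes tested in these leave-outs are not given here. A lower count can therefore not be told from a loss of calls among all genes. In the leave-outs that leave 1 sample in a group, that sample is assumed to vary like the others. No block could be fitted for the change in controls. Low values are coarse in the 7 shallow libraries, and most times have 2 samples per arm.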
